A study of Caenorhabditis elegans with 2 samples.

Results

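Peaks whose summits lie in exons are described here for TLF-1, the TBP-like factor of the nematode Caenorhabditis elegans. A member is a summit of the reproducible peak set, kept by the authors' irreproducible discovery rate filter (the IDR set), that lies inside an exon of a protein-coding gene and outside the window from 500 bp upstream to 100 bp downstream of every protein-coding gene start. There were 211 such exonic summits and 1669 other IDR summits, so that 11.2% of the IDR set was exonic (95% Wilson interval 9.87 to 12.7). Of these, 104 lay in coding sequence, 24 in 5' UTRs, 79 in 3' UTRs and 4 in other exon bases. The last 4 were the summits in best-18 and F17C11.22, which lay 1 and 2 bp past the last annotated coding base, and 2 summits in exons of tos-1 that carry no coding or UTR annotation. Stop codon annotation was not used in placing summits. The 211 summits had 209 host genes, or 1.05% of the 19973 protein-coding genes.

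Chromatin was immunoprecipitated with an anti-GFP antibody from whole young adults of 65.5 hours, both sexes pooled, grown from starved L1 larvae. All animals were of strain OP749, which carries the integrated transgene wgIs749, which holds tlf-1::TY1::EGFP::3xFLAG and the rescue marker unc-119(+), in the unc-119(tm4063) background. There was a single group of 2 biological replicates with separate biosample records, and both were called against a shared control file. No untagged strain, input list or second condition was analysed here, so every comparison below is between classes of sites in the same animals. Whole animals mix germ line and somatic tissues, and a peak does not say in which cells it arose.

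TBP-like factors are relatives of the TATA-binding protein that take part in transcription initiation at some promoters in animals. RNA polymerase II transcribes a gene through its exons, and the 3' end of the mRNA is made by cleavage and polyadenylation downstream of a poly(A) signal, most often AATAAA. The C. elegans genome is compact, and neighbouring genes on opposite strands often run towards each other so that their 3' ends meet or overlap. Such ends are called facing ends here.

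The stretches below show examples of facing ends, where 100 of the 211 exonic summits lay. Each is 30 bases of WBcel235 (ce11), read 5' to 3' on the strand given, with the AATAAA hexamer nearest the annotated gene end in capitals. The pairs are the 4 strongest exonic summits at facing ends on chromosomes II to V and X for which both genes carry that hexamer within 50 bases before their annotated ends. Both genes carried it in 23 of the 100 pairs, so the other pairs lack it at 1 end or at both.
ran-1 (host, 3' UTR summit), chrIII:10746584-10746613, minus strand: acaacttgttgcAATAAAttgtagcaccat
rib-2 (facing ran-1), chrIII:10746633-10746662, plus strand: cataaaatataaAATAAAtcatggagattg
F58A4.6 (host, coding summit), chrIII:9615276-9615305, plus strand: aacaagtgattaAATAAAatgttctcattt
hcp-3 (facing F58A4.6), chrIII:9615308-9615337, minus strand: tatttgtcaaatAATAAAgattcattactt
F09F7.5 (host, coding summit), chrIII:5551198-5551227, plus strand: ataaatttctcaAATAAAaccgattcgatt
F09F7.6 (facing F09F7.5), chrIII:5551235-5551264, minus strand: tgaagaaatgaaAATAAAatatattgcttt
unc-85 (host, 3' UTR summit), chrII:4703185-4703214, plus strand: gaatgttttccgAATAAAactgtacagtgt
F10G7.9 (facing unc-85), chrII:4703254-4703283, minus strand: tagtacaatcacAATAAAccagttttatat

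At ran-1, the GTPase of nuclear transport, the first base of the hexamer lay 20 bases before the annotated end and 14 bp from the summit. At rib-2, a heparan sulfate glycosyltransferase gene that runs towards ran-1, it lay 30 bases before the end and 30 bp from the same summit. At hcp-3, the centromeric histone H3 gene that faces F58A4.6, it lay 19 bases before the end and 57 bp from the summit. At unc-85, which encodes a histone chaperone, it lay 22 bases before the end and 13 bp from the summit. The summit of F09F7.5 was farther away, 163 bp from its own hexamer and 205 bp from that of F09F7.6.

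A different word is shown for the 5' UTR summits. GCGCCA, searched on both strands in the 200 bp around each summit, is given in capitals for the members in 5' UTRs of the same chromosomes that hold it.
aldo-2, first copy, chrIII:5876431-5876460, plus strand: ggcgaacgggcgGCGCCAaatattgttggc
aldo-2, second copy, chrIII:5876445-5876474, minus strand: tcagttctctgcGCGCCAacaatatttggc
Y38F2AL.12, chrIV:2316997-2317026, minus strand: tgtcccaaaggcGCGCCAccgcaaacgttg

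The copies at aldo-2, a fructose-bisphosphate aldolase gene on the minus strand, began 16 and 3 bp from the summit, and the copy at Y38F2AL.12 began 21 bp from it. The copies of aldo-2 point towards each other and lie so close that their printed stretches overlap.

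Exons held fewer of the strong summits than their length gives. Exonic bases outside promoter windows make up 26.4% of the genome and held 11.2% of IDR summits. The deficit was in coding sequence, with 4.55 summits per Mb, a share of summits 0.243 times its share of bases. The 3' UTRs held 28.5 summits per Mb (1.52 times their share) and the 5' UTRs 31.8 per Mb (1.69 times), against 9.08 per Mb in introns, 17.3 per Mb between genes and 74.2 per Mb in promoter windows. Among the 26273 pooled peaks below the IDR set, 33.9% were exonic and 28.2% were coding, so the coding share of summits rose as peaks weakened.

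That order held inside the IDR set too. The 4 successive groups of 470 peaks, from strongest to weakest, held 30, 47, 66 and 68 exonic summits, or 6.38%, 10%, 14% and 14.5%. Of the next peaks of the pooled list, as many again as the IDR set, 22.2% were exonic. The 3' UTR share was highest, at 6.70%, in those next peaks and was 3.81% among the weakest 13113.

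**Figure D1:**
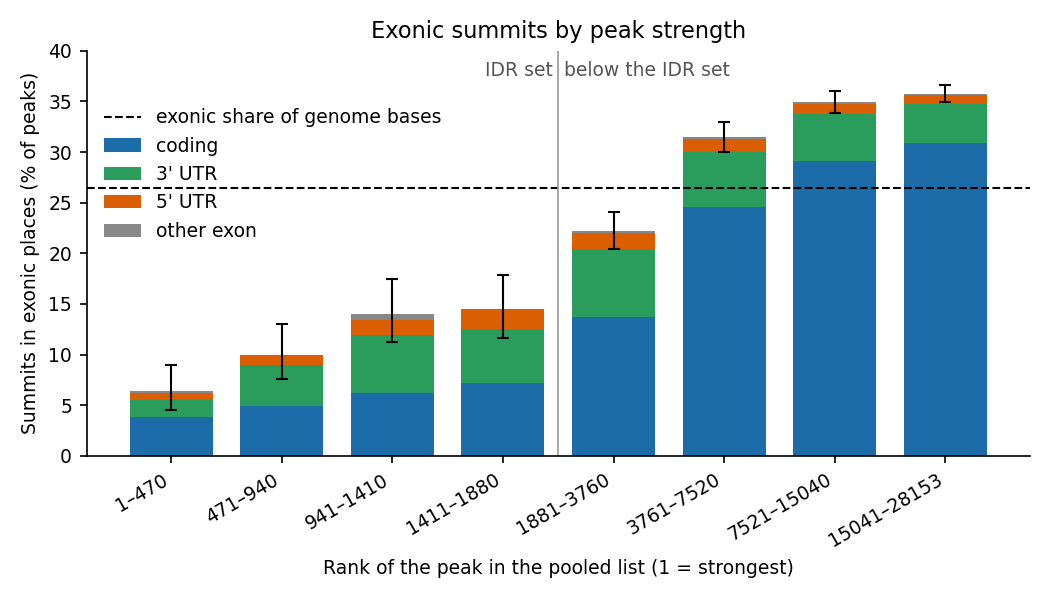
Share of peaks whose summit lies in an exon outside promoter windows (y axis, percent of peaks), in groups of the pooled list by rank (x axis, strongest at left). Colours divide the share by place, black bars are 95% Wilson intervals of the total, and the dashed line is the 26.4% of genome bases in exonic places; the total is 6.38% in the strongest 470 peaks and 35.7% in the weakest 13113.

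The authors' signal value ranks peaks within a list. Its median was 108 at exonic summits, against 118 over all IDR summits and 128 in promoter windows. Among the 940 strongest IDR peaks were 36.5% of the exonic summits. The strongest member was the 5' UTR summit of C34C12.2, with a pooled signal of 494.2, 241 in replicate 1 (rank 26) and 248 in replicate 2 (rank 44). The strongest coding member was in exon 22 of 30 of pks-1, a polyketide synthase gene on the X chromosome, with 381.8 pooled, 200.0 in replicate 1 and 188.0 in replicate 2. The strongest 3' UTR member was at Y82E9BR.3, with 318.8 pooled, 116 in replicate 1 and 206 in replicate 2. A replicate's value is that of its strongest peak that overlaps the member by at least 1 bp.

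The replicates shared most members. Of the 211, 131 (62.1%, interval 55.4 to 68.4) overlapped a peak among the strongest of both replicates, as many from each as the IDR set holds, against 68.1% of all IDR peaks. When the replicate summits had to lie within 100 bp of the IDR summit, 48.3% of exonic summits and 62.1% of all IDR summits remained. Of the exonic summits 75.4% overlapped a top peak of replicate 1 and 84.4% one of replicate 2, against 82.1% and 83.9% of all IDR peaks, and 5 members overlapped neither. The ranks differed most at dnj-20, a DnaJ co-chaperone gene (rank 10339 in replicate 1 and 592 in replicate 2), at mrrf-1, a mitochondrial ribosome recycling factor gene (7020 and 950), at icl-1, the glyoxylate cycle enzyme (598 and 8732), and at F13H8.5 (1082 and 6512).

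**Figure D2:**
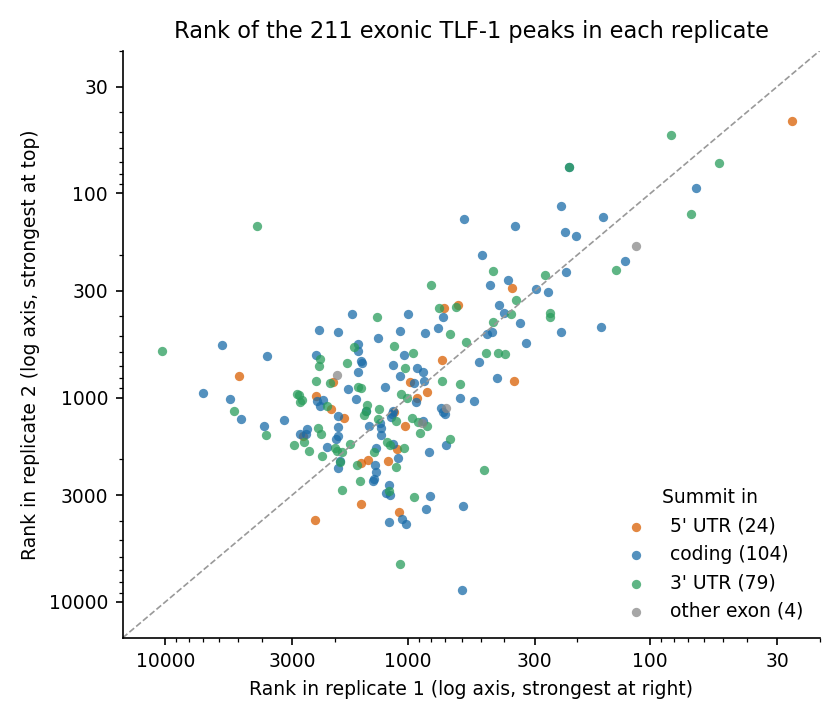
Rank of each of the 211 exonic summits in replicate 1 (x axis) and replicate 2 (y axis), as the rank of the strongest overlapping peak in each list, on log axes with the strongest at right and at top, coloured by place; the dashed line marks equal ranks. C34C12.2 is the point at upper right (ranks 26 and 44), and dnj-20 is the point farthest left (ranks 10339 and 592).

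Coding summits gathered near the 3' ends of their genes. Of 104 coding summits, 52 (50%, interval 40.6 to 59.4) lay in the last exon, against 14.6% of the 200-bp genome tiles centred in coding sequence, and 30.8% lay in an internal exon against 75.5% of tiles. Within 250 bp of the annotated gene end lay 47 coding summits (45.2%, 36 to 54.8), against 8.02% of coding tiles. Their median position was 84.7% of the way along the gene, against 54.7% for tiles. Tiles were placed in coding sequence by the same rule, promoter windows excluded.

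The 3' UTR summits were also close to the end, 67 of 79 (84.8%, 75.3 to 91.1) within 250 bp of it against 64.9% of 3' UTR tiles. Their median distance to the end was 72 bp. Over all places the exonic summits lay a median of 203 bp before the gene end and 1812 bp from the gene start.

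The neighbourhood of gene ends drew IDR summits beyond the exons as well. Of 1044 IDR summits outside promoter windows, 300 (28.7%, interval 26.1 to 31.6) lay within 250 bp of a protein-coding gene end, and 131 of those 300 were exonic. Such bases are 7.92% of the genome outside promoter windows, and 12.5% of the pooled peaks below the IDR set lay there. Counted from the nearest end, IDR summits were densest 100 to 199 bp past it (83.8 per Mb), with 28.1 per Mb in the last 100 bp of the gene and 3.68 per Mb at 201 to 300 bp inside it.

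**Figure D3:**
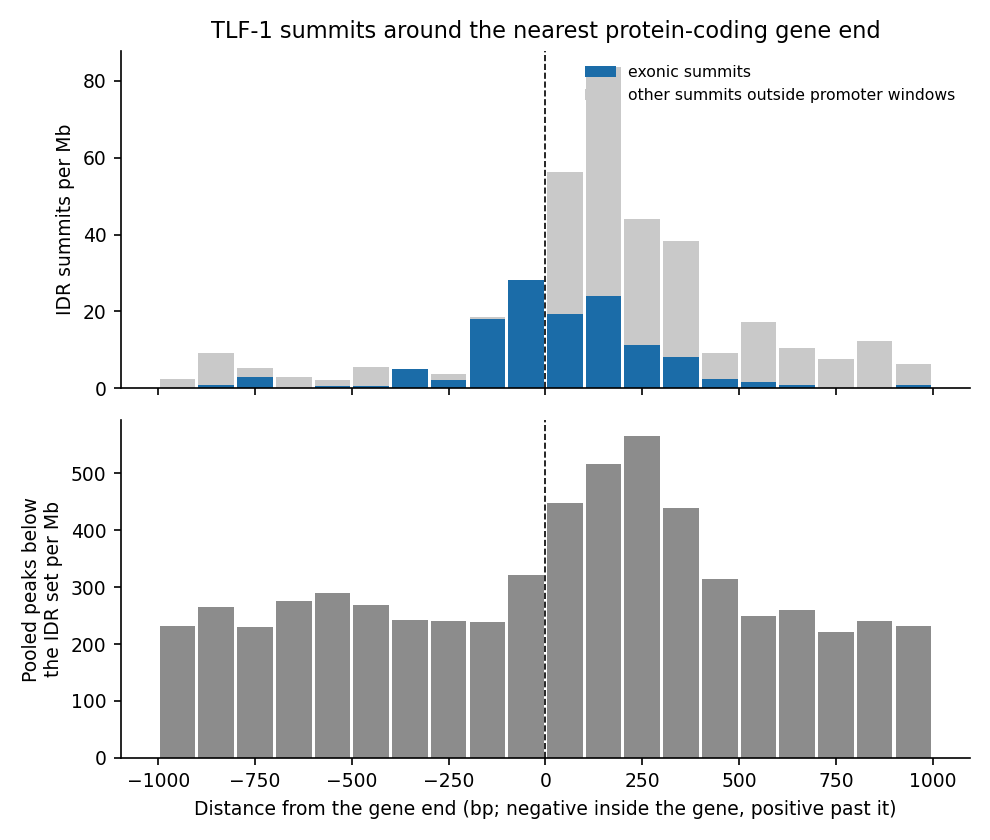
Summits outside promoter windows per Mb of sequence (y axes) in 100-bp steps of distance from the nearest protein-coding gene end (x axis, negative inside the gene and positive past it), for IDR summits in the upper panel, exonic ones in blue, and for pooled peaks below the IDR set in the lower panel. IDR summits reach 83.8 per Mb at 100 to 199 bp past the end, and exonic summits past an end lie in the exon of a neighbouring gene.

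Most of the members near an end lay where 2 genes face each other. Of the 116 exonic summits within 250 bp of the host's end, 100 (86.2%, interval 78.8 to 91.3) had the end of a protein-coding gene of the opposite strand within 500 bp of the host's end. The same held for 33.4% of exonic tiles within 250 bp of a gene end and for 28.8% of all protein-coding genes. It also held for 46 of the 95 exonic summits farther from the host's end (48.4%, 38.6 to 58.3). Among coding summits near the end the count was 45 of 47 (95.7%, 85.8 to 98.8), and among 3' UTR summits 53 of 67 (79.1%, 67.9 to 87.1). Of all 211 members, 100 (47.4%, 40.8 to 54.1) were thus at facing ends, against 4.63% of exonic tiles, a ratio of 10.2. The promoter window of the rule removes ends that lie close before the start of another gene, and it removes the same tiles.

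The genes at these ends often overlapped, as facing genes do in general. In 59 of the 100 cases the annotated genes overlapped. Of all 5750 protein-coding genes with a facing end within 500 bp, 3156 overlapped the facing gene. Of the 6150 exonic tiles at such ends, 3261 had overlapping genes, so the pooled share of the members was near the background. By place it was not the same. Genes overlapped at 31 of 45 coding summits at facing ends, a higher share than the 1376 of 2867 coding tiles there. At 3' UTR summits the count was 26 of 53, a lower share than the 1851 of 3208 3' UTR tiles. No interval was computed for these shares. There were 99 distinct gene pairs, since the pair of Y82E9BR.3 and lelo-2 held a summit on each side, with ranks 116 and 567. These 2 summits lie 199 bp apart in the same peak interval and have the same replicate peaks. Seen from the facing gene, 94 of the 100 summits lay beyond its annotated end. Over all 100 the median position was 111.5 bp past that end (quartiles 46 and 166.5 bp). All 45 coding summits lay beyond it, by 21 to 388 bp with a median of 131 bp. The rule largely fixes these values, since each summit lies inside the host within 250 bp of its end. Where the genes do not overlap, such a summit is always beyond the facing end, so only the 59 overlapping cases could differ. No tile share was set beside the count, and a preference for that side was not tested. Seen from the host, the 100 summits lay a median of 114 bp before its end.

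The share at facing ends was greater among stronger peaks. It was 58.4% of the 77 exonic summits among the 940 strongest IDR peaks and 47.4% over the IDR set. It was 26.4% of the 417 exonic summits among the next as many pooled peaks and 8.74% of the 8912 below the IDR set. Among as many of the strongest peaks of replicate 1 alone it was 37.1%, and of replicate 2 alone 45.0%.

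**Figure D4:**
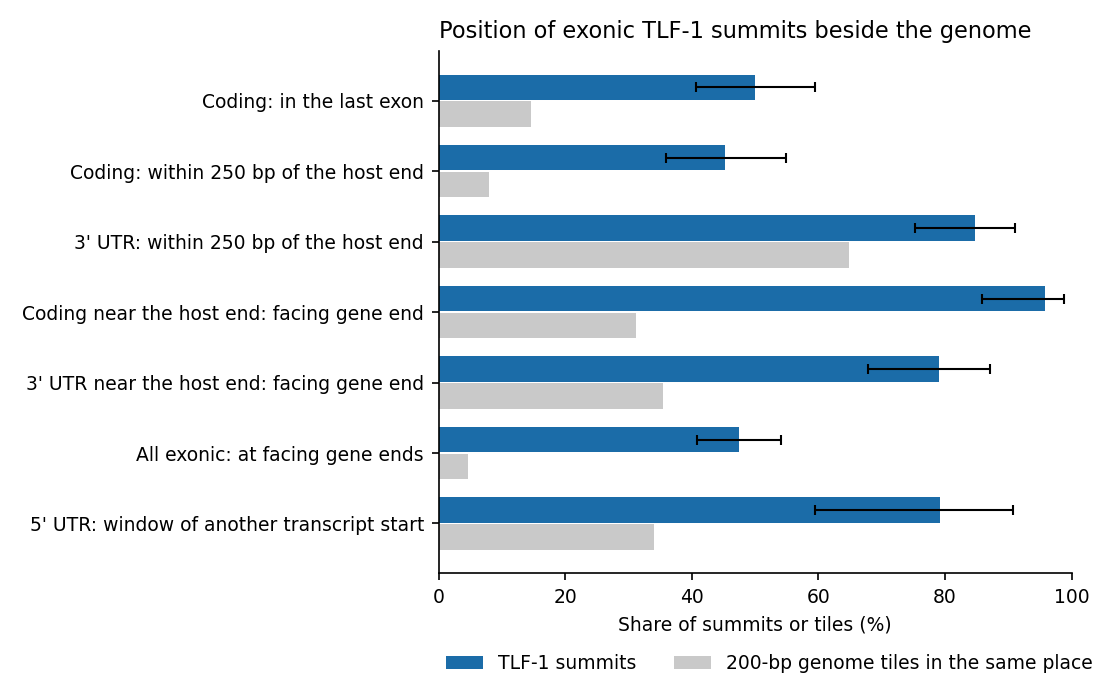
Share (x axis, percent) of exonic TLF-1 summits (blue, with 95% Wilson intervals) and of 200-bp genome tiles in the same kind of place (grey) that meet the position named at left. Coding summits near the host end face another gene end in 95.7% of cases against 31.2% of tiles, and 47.4% of all exonic summits are at facing ends against 4.63% of tiles.

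Several facing genes encode housekeeping proteins. The coding summit in F31E3.12 (pooled signal 203.9, with 79.8 in replicate 1 and 133.0 in replicate 2) lay 21 bp past the end of eef-1A.1, the translation elongation factor. The coding summit in lmd-2, a LysM domain gene, lay 159 bp past the end of rpl-4, with 73.8 in replicate 1 and 157.0 in replicate 2. The coding summit in chmp-7 lay 104 bp past the end of rpl-32, with 98.2 in replicate 1 and 84.8 in replicate 2. The coding summit in C36E8.4 lay 249 bp past the end of tbb-2, a beta-tubulin gene. The summit at best-18 lay 27 bp past the end of cts-1, citrate synthase, and the 3' UTR summit of F25B5.5 lay 42 bp past the end of ubq-1, polyubiquitin. These 6 were picked after their values were seen.

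Over the gene lists, the facing genes included 6 of 81 cytosolic ribosomal protein genes (7.41%, interval 3.44 to 15.2), namely rpl-4, rpl-30, rpl-32, rpl-39, rpl-41.2 and rps-1. They included 4 of 33 proteasome subunit genes (12.1%, 4.82 to 27.3), pbs-1, pbs-4, rpn-2 and rpn-8. They included 3 of 40 translation factor genes, eef-1A.1, eef-1G and ife-3, and 3 of 66 chaperone genes, cct-1, cct-7 and hsp-1. The background was 100 of 19973 protein-coding genes, or 0.501%. Only a gene whose end faces another within 500 bp could be counted, and of all 5750 such genes 100 were (1.74%, 1.43 to 2.11). On that base the count was 6 of 31 ribosomal protein genes (19.4%, 9.19 to 36.3), 4 of 17 proteasome subunit genes (23.5%, 9.56 to 47.3), 3 of 9 translation factor genes and 3 of 19 chaperone genes. Also above 1.74% were the intervals of ubiquitin genes and ligases (2 of 6, 9.68 to 70.0%) and chromatin genes (3 of 24, 4.34 to 31.0%). So were those of vitellogenins (1 of 4) and of actins and tubulins (1 of 9). Other lists of widely expressed genes gave few or none, with 1 of 19 oxidative phosphorylation genes and 0 of 22 mitochondrial ribosomal protein, 15 splicing factor and 29 cell cycle and replication genes. The intervals of these last lists include 1.74%. The count was 0 of 259 chemoreceptor genes (interval 0 to 1.46%) and 0 of 47 cuticle collagen genes (0 to 7.56%), and the interval of the collagens includes the share over all such genes.

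The lists that held hosts differed in part from those that held facing genes, with ribosomal protein and chaperone genes in both. Of 45 germline and embryo RNA-binding protein genes 6 were hosts (13.3%, interval 6.26 to 26.2), against 1.05% of all protein-coding genes. Their 3' UTRs held 4 of the summits. These were at pos-1, a zinc finger protein of the early embryo (pooled signal 200.9, with 84.7 in replicate 1 and 121.0 in replicate 2), at spn-4, an RRM protein of the early embryo (163.5, with 86.1 and 81.4), at car-1, a P granule and P body protein (158.0, with 71.2 and 102.0), and at daz-1, a DAZ family protein of oogenesis (87.5, with 36.2 and 50.1). The Vasa-like helicase gene glh-1 had a coding summit (117.0) and gld-2, a cytoplasmic poly(A) polymerase gene, a 5' UTR summit (95.5).

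Of 48 splicing factor genes 4 were hosts. The SR protein genes rsp-3 (99.4) and rsp-5 (96.1) and sna-3 (90.1) had 3' UTR summits, and rnp-1 (96.2) had a coding summit. Of 66 chaperone genes 3 were hosts (4.55%, 1.56 to 12.5), all with 3' UTR summits. They were hsp-6, the mitochondrial HSP70 (102.1), dnj-20 (93.7) and hsp-12.3, a small heat shock protein gene (86.6). Of 81 cytosolic ribosomal protein genes 3 were hosts (3.7%, 1.27 to 10.3). They were rpl-3 (221.5) and rpl-35 (136.7) in the 3' UTR and rps-13 (230.9) in the last coding exon.

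Cell cycle and replication genes gave 2 hosts of 68, both in the 3' UTR, the B-type cyclin gene cyb-3 (135.4) and the replicative helicase subunit gene mcm-4 (108.4). Lists with a single host were those of 28 eggshell and oocyte genes (egg-6, 100.6), 82 homeobox and other patterning genes (ceh-8, 163.2) and 103 chromatin genes (the Retinoblastoma homologue lin-35, 90.1), all with 3' UTR summits, and of 269 nuclear receptor genes (nhr-66, 84.8), with a 5' UTR summit. The neuron marker list gave 2 hosts of 169 (1.18%, near the 1.05% of all protein-coding genes), the insulin-like genes ins-17 (104.1, 3' UTR) and ins-10 (92.9, coding). The 4 chemoreceptor hosts of 1365 (0.293%) were coding. The lists of 73 core histone, 174 collagen, 132 major sperm protein and 69 oxidative phosphorylation genes held no host. The intervals of these lists, of those with a single host and of the cell cycle list all include the 1.05% of all protein-coding genes.

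The 3' UTR hosts often had an IDR summit in their promoter window. An IDR summit lay in the promoter window of 31 of 84 genes with a 3' UTR summit (36.9%, interval 27.4 to 47.6), against 15 of 101 coding hosts (14.9%, 9.21 to 23.1), 2 of 24 5' UTR hosts (8.33%, 2.32 to 25.8) and 24 of 252 hosts of intronic summits (9.52%, 6.48 to 13.8). Over all protein-coding genes the share was 5.28%. With a window of 250 bp upstream, 18 of the 84 genes with a 3' UTR summit had such a peak (21.4%). The rule excludes the window itself, so the 2 summits of such a gene are different summits, though their peaks may overlap. At xrn-2, a coding host, the 2 summits were 200 bp apart. The ribosomal protein gene rpl-3 carried the strongest promoter peak of the IDR set (rank 1) and a 3' UTR summit at rank 247. In the same way rpl-35 had ranks 4 and 691, ran-1 157 and 195, spn-4 161 and 491, pos-1 188 and 321, and hsp-6 225 and 1278. A summit counted for every gene whose window held it, so some promoter peaks are shared between genes. The hosts clec-87 and rsa-1 were both counted through the summit of rank 1491. The summit of rank 225 lay in the windows of both hsp-6 and C37H5.5.

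At the 100 facing ends, 28 hosts and 33 facing genes had a promoter peak and 7 pairs had it at both genes. In 46 pairs neither gene had one, among them lmd-2 with rpl-4, lin-29 with hmg-12 and F25B5.5 with ubq-1. With the strongest peaks of a single replicate, the share of 3' UTR hosts with a promoter peak was 26.4% in replicate 2 and 31.2% in replicate 1.

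**Figure D5:**
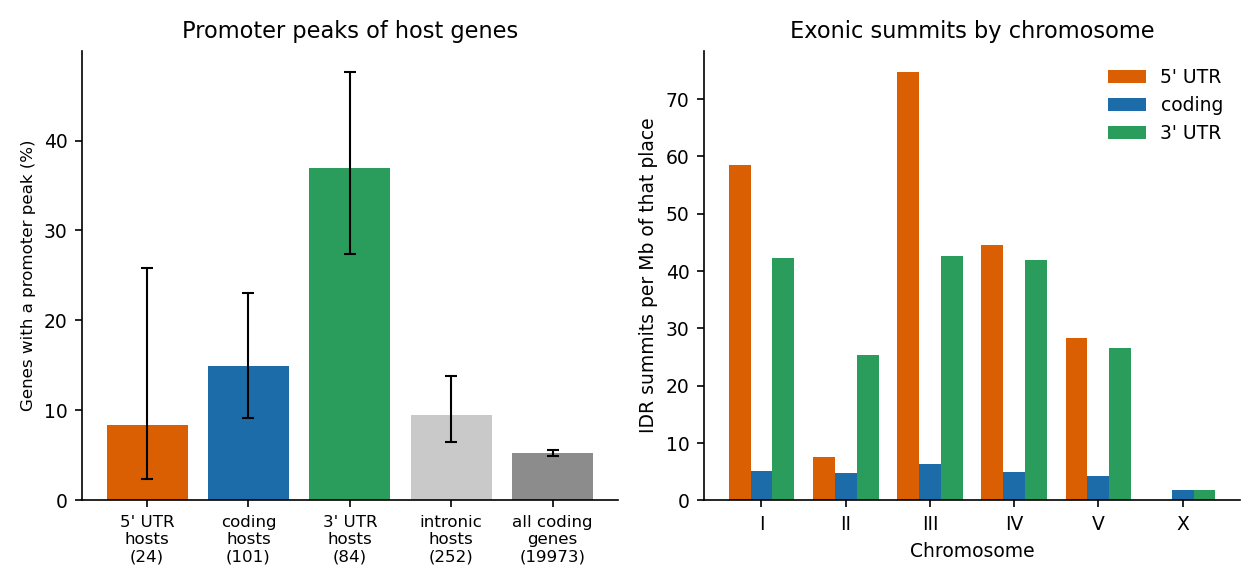
Left, share of host genes with an IDR summit in their promoter window (y axis, percent) by the place of the summit, beside intronic hosts and all protein-coding genes, with 95% Wilson intervals and the number of genes under each bar. Right, exonic IDR summits per Mb of each place (y axis) on each chromosome; 3' UTR hosts reach 36.9%, and the X chromosome has 1.75 summits per Mb of 3' UTR against 35.4 on the autosomes together.

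Most 5' UTR summits lay near another annotated transcript start. Of the 24, 19 (79.2%, interval 59.5 to 90.8) lay within 500 bp upstream to 100 bp downstream of another annotated transcript start, against 34% of 5' UTR tiles, 4.81% of coding summits and no 3' UTR summit. They were in the first exon in 23 of 24 cases (95.8%, 79.8 to 99.3), against 85.6% of 5' UTR tiles, and lay a median of 504 bp from the gene start. Among the 8 strongest, aldo-2 (166 bp from the gene start), idh-1, an isocitrate dehydrogenase gene (121 bp), drap-1, which encodes a subunit of the TBP-binding repressor NC2 (1331 bp), pcf-11, a 3' end cleavage factor gene (411 bp), C34B4.2 (3170 bp) and pck-2, a phosphoenolpyruvate carboxykinase gene (231 bp), lay in such a window. C34C12.2 (2632 bp) and sec-61.A, the translocon channel subunit (145 bp), did not.

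Their replicate values were 93.1 and 112.0 at aldo-2, 71.4 and 103.0 at sec-61.A, 67.7 and 102.0 at idh-1, 93.7 and 69.1 at drap-1 and 67.4 and 78.1 at pcf-11, replicate 1 before replicate 2. Their ranks in the replicates ran between 291 and 833, and each was among the strongest peaks of both.

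The strongest coding summits lay both near the host's end and far from it. Among the 940 strongest IDR peaks, 23 of 41 coding summits (56.1%) were within 250 bp of the host's end. Of the 8 strongest coding members, pks-1 and T28F4.4 (291.0, with 133.0 in replicate 1 and 159.0 in replicate 2) lay 12408 and 6410 bp before the host's end. The T28F4.4 summit was, however, within 250 bp past the end of T28F4.5, an opposite-strand gene inside T28F4.4. The other 6 lay in the last exon, 132 to 391 bp before the end, 4 of them within 250 bp of it. They were dos-3, a DOS motif gene (277.4), stdh-1, a steroid dehydrogenase-like gene (269.9), arrd-6, an arrestin domain gene (246.9), lmd-2 (235.5), suro-1 (232.2) and rps-13. Among the 8 strongest 3' UTR members, C05D11.8 (207.0) and lin-29, the heterochronic zinc finger gene (196.3), lay 460 and 112 bp before the end, and the others 3 to 50 bp before it.

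Exonic summits were rare on the X chromosome. There were 7 among 242 X-linked IDR summits (2.89%, interval 1.41 to 5.85), against 204 of 1638 on the autosomes (12.5%, 10.9 to 14.1). Of summits outside promoter windows the shares were 3.85% on X and 23.7% on the autosomes. The X chromosome held 6 coding, 1 3' UTR and no 5' UTR summit, and 1 of its 7 was at facing ends, which take 3.88% of X exonic tiles against 4.77% on the autosomes. Among the strongest peaks of a single replicate, the exonic share of X-linked summits was 5.19% in replicate 1 and 4.55% in replicate 2.

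Small RNA genes were seldom near. Of the members 7 (3.32%, interval 1.62 to 6.69) lay within 100 bp of a tRNA, snoRNA, snRNA, miRNA or spliced leader gene. The share was 12.2% of all IDR summits and 32.2% of intronic ones. It was 4.31% of summits in promoter windows, inside the interval of the members, so the low share was not particular to exons. The tRNA genes were Y69A2AR.t2 at mdf-2, W02G9.t2 at W02G9.3 and Y105C5B.t1 at srv-16. The snRNA genes were F38E11.11 at hsp-12.3 and R07E5.16 at dhc-4, the miRNA gene was mir-41 at Y62F5A.9, and the spliced leader gene was sls-2.14 at W09D6.5. No member was within 100 bp of a snoRNA gene, against 73 IDR summits (3.88%). At dhc-4 the member ranked 1811 in the IDR set, while the strongest overlapping peak ranked 224 in replicate 1 and 155 in replicate 2. At hsp-12.3 these ranks were 1751, 375 and 389. The summit of the overlapping replicate peak may be another one.

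The nearest other IDR summit was a median of 2591 bp from an exonic summit, against 6344 bp for the other summits outside promoter windows and 5531.5 bp over all IDR summits. Another IDR summit within 300 bp was found for 20 members (9.48%, interval 6.22 to 14.2), a share near the 9% of the other summits outside promoter windows. Over all IDR summits it was 6.17%, and in promoter windows 2.51%. The genes dos-3, arrd-6, tos-1, unc-78, icl-1, Y73F8A.26 and nxf-1 each held 2 exonic summits.

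Sequence words differed between the places. The GCGCCA word was in the 200 bp around 5 of 24 5' UTR summits (20.8%, interval 9.24 to 40.5), 4 of 104 coding and 4 of 79 3' UTR summits, in all 13 of 211 (6.16%, 3.64 to 10.3). It was in 15.6% of all IDR windows and 20.7% of those in promoter windows, and in 2.89% of exonic tiles and 3.34% of 5' UTR tiles. The 4 E2F-like words were TTGGCGC, which contains GCGCCA on its other strand, then TTCGCGC, then GGCGCGAA, and last GGCGGGAA. At least 1 of them was at 12 exonic summits (5.69%), against 13.0% of all IDR summits and 2.18% of exonic tiles.

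The TATA box, TATAAA, was at 45 exonic summits (21.3%, interval 16.3 to 27.3), against 15.2% of all IDR summits and 15.1% of exonic tiles. In 3' UTRs alone the share was 26.6%, and 26.5% of 3' UTR tiles held it. The poly(A) signal AATAAA, on either strand, was at 95 exonic summits (45.0%), against 35.5% of all IDR summits and 29.1% of exonic tiles. By place it was at 68.4% of 3' UTR summits against 60.1% of tiles and at 26.9% of coding summits against 24.9% of tiles. The hexamer on the gene's strand within 50 bases before its annotated end was found at 56 of 100 hosts at facing ends (56.0%, 46.2 to 65.3) and 39 of 100 facing genes (39.0%, 30 to 48.8), against 48.2% of all protein-coding genes. Each window had a median of 38.5% GC at exonic summits, with 42% in 5' UTRs, 41.2% in coding sequence and 34.5% in 3' UTRs, against 41.5% over all IDR summits.

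The rule has an edge at the promoter window. The members nearest it lay 505 bp upstream of the such-1 start (signal 100.8) and 108 bp downstream of the starts of F42A10.9 (113.8) and ins-10 (92.9). Just outside the rule were summits 99 bp downstream of Y56A3A.22 (154.4) and 98 bp downstream of ccch-3 (129.1). A further 91 IDR summits lay in exons but inside a promoter window, and they are not counted here.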

How the data were processed

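Tagged TLF-1 was measured by chromatin immunoprecipitation and sequencing in 2 replicates of a single group. The authors deposited peak lists for each replicate (24495 and 23453 peaks), for both pooled (28153) and for the IDR set (1880) on ce11, per the labels and file headers. The signal value of each peak is the deposited value, of unstated scale, so it is quoted per list and compared only inside a list. The −log10 q-value was deposited but not used. The summit offset is the authors' own. The software for alignment and peak calling and the IDR cutoff are not given in the sources used, and depth is unknown. Whether the replicates were grown separately is not stated beyond their separate records.

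Summits were placed on Ensembl release 115 gene models of WBcel235, and sequence came from the RefSeq copy. Overlaps were resolved in the order promoter window, coding, 5' UTR, 3' UTR, other exon. The genome was cut into 200-bp tiles whose centres were placed in the same way, as a description with no test. With 1 group no test of conditions was possible. Intervals on shares are 95% Wilson intervals and cover counting error only. Neighbouring peaks and genes are not independent. The 25 gene lists and 12 motifs, the members and the comparisons were chosen with earlier results of these data known. Genes were named by rule: hosts of the 8 strongest members of each place, up to 4 members a gene list or small RNA class, the most discordant in replicate rank and those nearest the window edge. Named beyond the rule, after their values were seen, were facing genes and their hosts, genes of the printed sequences, hosts with a promoter peak or with 2 summits, summits in other exon bases, and gld-2 and daz-1, which are past the first 4 of their list. Alternatives covered other windows, every transcript start, peak midpoints, feature order, single replicates, the stronger part of the IDR set and motif windows. The place and motif code was tested on simulated data. The code ran under Python 3.11.15 with scipy 1.17.1, pandas 2.3.3, numpy 2.4.6 and matplotlib 3.10.9.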

Additional observations from a re-analysis of the deposited data

How the results depend on the processing

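Alternatives for the shares at gene ends, at facing ends, on X and of hosts with a promoter peak were chosen after seeing the data. Peak midpoints and feature order left every count and share tried within its limits. With every transcript start the 5' UTR count was 5, and with the window widened to 1000 bp before and 500 bp after the start it was 11, while 63.0% of exonic summits lay near the host end and 56.2% at facing ends. With 250 bp upstream, 21.4% of 3' UTR hosts had a promoter peak, since that window is also the one counted. The 940 strongest IDR peaks, fewer by construction, held 77 exonic summits, 8 in 5' UTRs, 41 coding and 27 in 3' UTRs, with 64.9% near the host end, 56.1% of coding ones near it and 58.4% at facing ends. Within 100 bp of both replicate summits lay 48.3%.

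Leaving out each replicate in turn gave 237 to 260 exonic summits, 126 to 135 coding, 87 to 97 in 3' UTRs and 23 in 5' UTRs in either case. The median distance from the host start was 1734 to 1789.5 bp. Near the host end lay 48.1% to 51.9% of exonic and 33.3% to 35.6% of coding summits, and 37.1% to 45.0% were at facing ends. Of X-linked summits 4.55% to 5.19% were exonic, and of 3' UTR hosts 26.4% to 31.2% had a promoter peak. The cause of these shifts was not tested. In 100-bp windows 7 of 12 motif shares fell below their interval, by construction of the shorter window. No paired analysis was possible because there is only 1 group. Depth, and so the power to see weak summits, is unknown.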
